A study of Mus musculus with 43 samples.

Results

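Proliferating crypt cells of the mouse small intestine were compared 56 h after 12 Gy of whole-body irradiation with those of a non-irradiated littermate. The cells came from Mki67tm1.1Cle/J mice, whose Ki67-RFP fusion marks cycling cells, and all 3 libraries share that strain. Of the 43 samples of the series, 3 belong here: 1 single-cell library of non-irradiated cells and 2 of irradiated cells, labelled replicates 1 and 2. Crypts were isolated from the proximal small intestine with EDTA, non-irradiated crypts through a 70-µm strainer and irradiated crypts through a 100-µm strainer, so the strainer and the irradiation cannot be told apart. Cells were sorted as Ki67-RFP+ and DAPI-, with no epithelial surface marker named in the gate, and taken into PIPseq T2 3' single-cell libraries. The labels do not say whether the irradiated libraries came from different mice, and the p-values therefore measure only a spread that may be technical. No age of the mice is stated in the labels.

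Cells were kept when they held at least 500 UMIs (unique molecular identifiers, 1 per captured transcript) and at most 20% mitochondrial UMIs. This left 1846 of 1849 non-irradiated barcodes, 719 of 727 in irradiated replicate 1 and 699 of 721 in irradiated replicate 2. Median depth was 11968, 14399 and 13500 UMIs per cell, and the summed depth was 25767601, 13733744 and 12344815 UMIs. A level below is given as CPM, the UMIs of a gene per 1000000 UMIs summed over the cells of a library. No barcode was shared between libraries. UMIs in fractional entries, which are shared between genes, made up 14.2% of the non-irradiated library and 21.8 and 20.5% of the irradiated ones. Symbols of predicted genes (Gm with digits) and pseudogenes (-ps) were left aside.

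The small-intestinal crypt holds Lgr5+ stem cells at its base, fast-dividing progenitors above them, and Paneth and goblet cells as secretory neighbours. Ionising radiation breaks DNA and stabilises p53, a transcription factor whose targets stop the cell cycle, repair DNA or kill the cell. Crypts that survive regrow through cells that carry a fetal-like or regenerative program, known for clusterin (Clu), Ly6a (also called Sca-1), annexins and targets of the YAP coactivator. AP-1 factors of the Fos and Jun families bind the palindrome TGANTCA, and interferon signalling acts through the interferon-stimulated response element, here read as GAAA, any 2 bases and GAAA again.

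Start-site sequences are shown for 4 genes that rose after irradiation, 2 with an AP-1 motif and 2 with the interferon motif, because AP-1 partners and interferon targets are among the genes described below. Each window runs from 250 bases before to 50 bases after the start in RefSeq GRCm38.p6 and is written 5' to 3' on the gene's strand, with motif matches in capitals. Sprr1a (small proline-rich protein, minus strand of chr3:92485832-92486131) holds 2 AP-1 matches, which begin 146 and 116 bases before the start. Plaur (the urokinase receptor, plus strand of chr7:24462233-24462532) holds 1 AP-1 match at 69 bases. Isg15 (a ubiquitin-like interferon effector, minus strand of chr4:156200769-156201068) holds 3 overlapping matches from 78 to 66 bases. Ifit1 (an interferon-induced RNA-binding protein, plus strand of chr19:34640639-34640938) holds 2 matches, at 104 and 85 bases, both on the opposite strand.
Sprr1a: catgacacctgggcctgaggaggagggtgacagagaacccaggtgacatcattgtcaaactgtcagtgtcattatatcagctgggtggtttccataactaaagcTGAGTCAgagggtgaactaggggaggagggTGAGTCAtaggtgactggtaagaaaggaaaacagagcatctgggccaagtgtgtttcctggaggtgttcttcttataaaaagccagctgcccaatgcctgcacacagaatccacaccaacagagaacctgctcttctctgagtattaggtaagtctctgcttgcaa
Plaur: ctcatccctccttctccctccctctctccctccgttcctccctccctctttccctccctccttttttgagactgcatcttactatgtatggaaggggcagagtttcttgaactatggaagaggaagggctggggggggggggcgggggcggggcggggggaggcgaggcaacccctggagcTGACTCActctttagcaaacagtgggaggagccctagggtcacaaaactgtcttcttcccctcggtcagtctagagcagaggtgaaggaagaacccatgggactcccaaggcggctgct
Isg15: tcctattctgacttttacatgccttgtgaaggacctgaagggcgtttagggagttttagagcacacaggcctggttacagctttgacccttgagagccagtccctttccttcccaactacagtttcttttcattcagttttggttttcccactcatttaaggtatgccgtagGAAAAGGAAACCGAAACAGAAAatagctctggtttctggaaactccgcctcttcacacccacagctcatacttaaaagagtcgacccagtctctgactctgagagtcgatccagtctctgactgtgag
Ifit1: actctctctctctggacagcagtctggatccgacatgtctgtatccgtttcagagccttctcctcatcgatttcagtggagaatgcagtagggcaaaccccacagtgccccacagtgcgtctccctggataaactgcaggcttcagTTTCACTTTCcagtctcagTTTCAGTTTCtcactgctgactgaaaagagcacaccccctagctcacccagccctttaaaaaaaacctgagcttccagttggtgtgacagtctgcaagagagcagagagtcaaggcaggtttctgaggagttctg
Both strands were searched in 32851 windows. TGANTCA was in 7.81% of all windows, 5.07% of windows of tested genes, 6.24% of those of genes called higher and 7.62% of those of genes called lower. Of the 15 most raised genes, 9 had a window. The AP-1 motif was in 4 of their 12 windows (33.3%), those of Anxa10, Il1rn, Plaur and Sprr1a. The interferon motif was in 3.44% of all windows, 2.71% of those of genes called higher and 4.01% of those called lower. Among the interferon response genes described below, 20 of 36 windows (55.6%) held it, from 18 of the 29 symbols with a window. A match is a description of the letters and shows no binding.

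The libraries held intestinal epithelium. Of 9 pan-epithelial genes, 1 was called changed (Krt18, below), and Cdh1 (E-cadherin) stood at 340 CPM in the non-irradiated library and at 371 and 369 CPM in the irradiated libraries. Epcam, an epithelial adhesion molecule, was at 1480, 1035 and 988 CPM, 0.699 and 0.668 times the non-irradiated level, which did not reach the 2-fold limit. Mki67, the gene behind the sort, was at 180 CPM without irradiation and at 158 and 138 CPM after it, and was not called (adjusted p = 0.0674). Markers of other cell types were low but not absent. Summed over 12 T cell genes the level was 44.6, 88.6 and 62.1 CPM, over 9 B and plasma cell genes 1.86, 4.44 and 3.99 CPM, and over 11 myeloid genes 12.7, 29.1 and 20.5 CPM. Of these lists 2, 0 and 1 genes passed the level filter, and of those tested Cd14 was called higher (4.77 against 17.7 and 13.4 CPM). With no level filter 5 T cell, 1 B and plasma cell and 1 myeloid gene were called higher, while 3 of the 11 myeloid genes, C1qa, C1qb and C1qc, were at 0 in all libraries. Mesenchymal (4.87, 5.33 and 6.83 CPM), endothelial (6.30, 10.8 and 11.8 CPM) and erythroid (0.0388, 0.510 and 0.243 CPM) lists were also low. Leaving out the T-cell-like cells changed the counts of called genes to 869 higher and 494 lower.

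Irradiation went with a broad shift in expression, larger on the raised side. Of 9807 tested genes, 870 (8.87%) were called higher and 491 (5.01%) lower, where a call needs an edgeR adjusted p under 0.05 and a 2-fold difference in CPM between the non-irradiated library and each irradiated library. Over all tested genes the median log2 CPM ratio was 0.12 in replicate 1 and 0.13 in replicate 2. With levels scaled by TMM, which takes most genes as unchanged, the split was 719 higher and 622 lower. The irradiated libraries were close to each other: 142 tested genes (1.45%) lay over 2-fold apart between them, and their median absolute log2 difference was 0.137. Of the raised genes 282 rose by 4-fold or more in both libraries and 83 by 10-fold or more, against 123 and 33 of the lowered ones. The comparison has 1 non-irradiated library, so the test takes that library to vary as the irradiated pair does, with 1 residual degree of freedom. In summed counts, fewer cells of a type and less RNA per cell cannot be told apart.

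**Figure D1:**
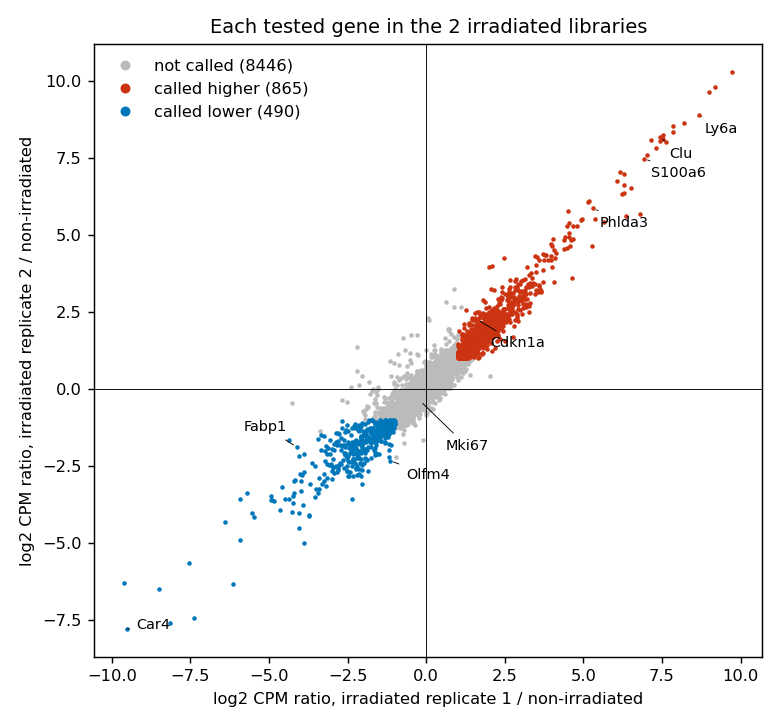
log2 CPM ratio to the non-irradiated library in irradiated replicate 1 (x axis) and replicate 2 (y axis), 1 point per tested gene with a level above 0 in all libraries, coloured by call. The 865 drawn genes called higher lie in the upper right, the 490 called lower in the lower left, and both groups follow the diagonal, with 6 genes not drawn because 1 library was at 0.

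The genes that rose most were nearly silent in the non-irradiated crypt. Annexin A10 (Anxa10) had no UMI in the non-irradiated library and stood at 13.98 and 13.4 CPM in the irradiated ones, at least 120-fold and 115-fold higher against the level of 3 UMIs (0.116 CPM). Ly6d, a stratified-epithelium surface antigen, went from 0 to 21.4 and 15.8 CPM (at least 184-fold and 136-fold). Both irradiated libraries thus lay far above a control without a molecule. Ly6c1 rose from 0 to 8.71 and 11.4 CPM (at least 74.8-fold and 98.1-fold), Sprr1a from 0 to 12.5 and 17.0 CPM (at least 107-fold and 146-fold), and Pear1 from 0 to 9.98 and 14.9 CPM (at least 85.7-fold and 128-fold). Atg9b, a paralogue of the autophagy scramblase Atg9a, had 2 UMIs without irradiation (0.0776 CPM) and stood at 65.8 and 96.7 CPM after it, a ratio of 848 in replicate 1 with a counting interval of 234 to 7013. Il1rn, the interleukin-1 receptor antagonist, was at 0.102, 52.4 and 80.4 CPM, with a ratio of 514 in replicate 1 (153 to 2186). Slc4a11, a membrane transporter, was at 0.116, 34.1 and 46.3 CPM, and the tubulin Tubb6 at 0.0776, 15.2 and 20.2 CPM. Zfp365 went from 0.0388 to 8.88 and 14.4 CPM. These genes were named for the size of their ratio in both libraries, so their distance from the control follows from that choice and is no test.

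The regenerative program accounted for many of these genes. Of its 28 members 23 were tested and 20 of them rose, with none lower, against 8.87% of all tested genes. The list's median log2 ratio over tested members was 4.58 and 4.63, or 3.22 and 3.51 without the 3 members at 0 in the control. A filter on mean level lets genes pass through their irradiated level alone, so these counts describe the members and are no test of the list. The untested members, among them Basp1, Ecm1, Spp1 and Msln, were low in every library. Clu, the secreted chaperone that names the revival stem cell, was at 0.272 CPM (7 UMIs) without irradiation and at 49.8 and 74.4 CPM after it, 183-fold and 274-fold higher (adjusted p = 0.000598). Ly6a was at 0.660, 268 and 313 CPM, 407-fold and 475-fold higher (adjusted p = 0.000326). These regenerative markers were high in both irradiated libraries.

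Annexins, calcium-dependent membrane binders, rose as a family within the list. Anxa1 went from 0.116 CPM to 20.2 and 33.2 CPM, Anxa3 from 0.466 to 60.2 and 89.5 CPM, and Anxa8 from 0.0388 CPM (1 UMI) to 22.6 and 34.4 CPM. Anxa5 and Anxa2 started higher and rose less, Anxa5 from 2.99 to 26.8 and 29.8 CPM and Anxa2 from 209 to 726 and 903 CPM. S100 proteins, which bind annexins, behaved likewise. S100a6 was at 10.9, 1338 and 1946 CPM, 122-fold and 178-fold higher, S100a11 at 62.9, 611 and 816 CPM, and S100a14 at 2.13, 51.1 and 52.9 CPM. Plaur, which focuses plasminogen activation at the cell surface, was at 0.116, 21.7 and 34.8 CPM, and the alarmin Il33 at 1.203, 33.1 and 46.7 CPM. Tnfrsf12a, the TWEAK receptor, went from 12.0 to 78.1 and 94.3 CPM. In all of these genes replicate 2 lay above replicate 1. The 3 members that were tested and not called were Ly6e (111, 211 and 219 CPM), Cd9 (101, 214 and 186 CPM, 83.5% of its UMIs fractional) and Cxadr (53.1, 64.3 and 74.8 CPM).

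**Figure D2:**
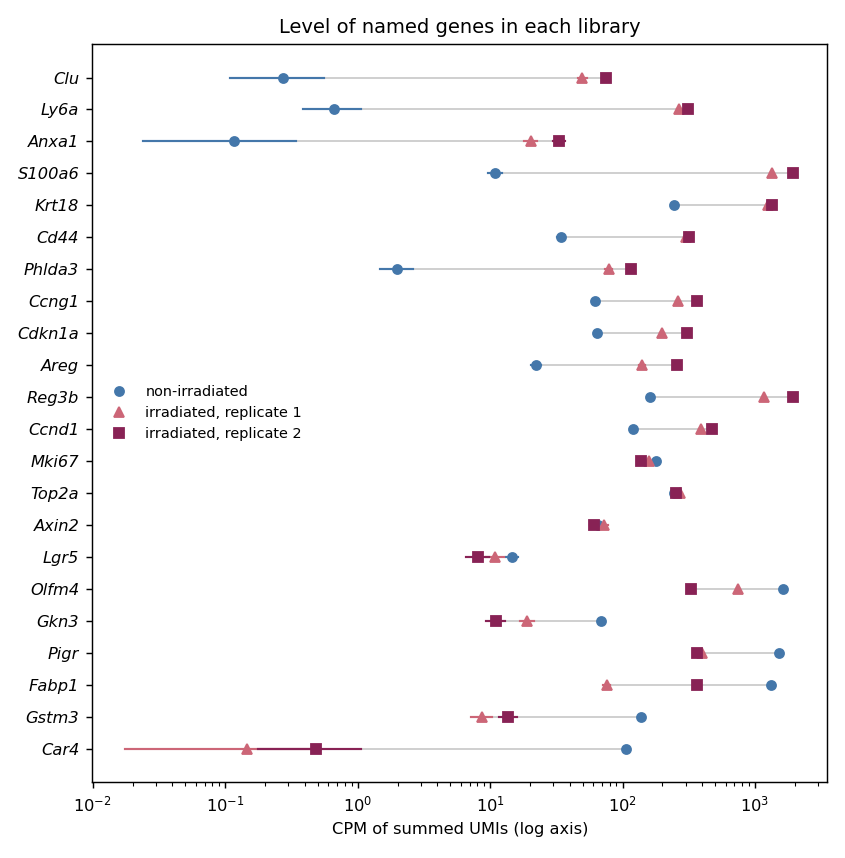
Level in CPM (log x axis) of 22 genes in the non-irradiated library (circles) and irradiated replicates 1 (triangles) and 2 (squares), with 95% counting intervals. Clu, Ly6a, Anxa1 and S100a6 lie more than 100-fold above the control in both irradiated libraries, Mki67, Top2a and Axin2 hardly move, and Car4 lies at the far left only after irradiation.

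YAP targets were divided. Of 20 genes on that list 9 were tested, 5 rose and none fell, against 8.87% and 5.01% of all tested genes. Those that rose were Ccn2 (connective tissue growth factor, 0.0388 against 8.96 and 12.6 CPM), Myof (0.349 against 8.16 and 14.5 CPM), F3 (tissue factor, 4.66 against 23.2 and 32.6 CPM), Ccn1 (10.8 against 52.4 and 53.1 CPM) and Amotl2 (6.30 against 18.8 and 16.7 CPM). Ccn2 and Myof passed the level filter only through their irradiated level, so the count describes the members and is no test. Crim1 (17.6, 16.5 and 22.4 CPM), Nuak2 (11.5, 9.68 and 9.32 CPM), Gadd45b (41.7, 30.1 and 26.2 CPM) and Sh2b3 (13.8, 9.03 and 9.40 CPM) were not called. The other 11 were below the level filter, and without that filter 10 of the list rose.

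Genes of the TGFB pathway were read from ligand to target. The ligand Tgfb1 was at 6.58 CPM without irradiation and at 19.2 and 20.1 CPM with it, and it was called higher, but 45.7% of its UMIs were fractional and the call was lost without cluster 5, defined below, where its mean log2 ratio was 0.50. The type II receptor Tgfbr2 rose from 8.54 to 58.4 and 74.5 CPM, while the type I receptor Tgfbr1 stood at 20.01, 18.7 and 18.3 CPM. Itgav, an integrin chain that releases latent TGFB, rose from 9.86 to 22.4 and 28.2 CPM. The signal carriers Smad2 (23.6, 24.2 and 28.7 CPM), Smad3 (10.0, 9.25 and 11.0 CPM) and Smad4 (69.2, 55.3 and 56.6 CPM) were not called. Of the feedback inhibitors, Pmepa1 rose 8.26-fold and 9.06-fold (11.7 against 96.6 and 106 CPM), Smad6 fell from 9.04 to 1.75 and 0.770 CPM, and Smad7 was at 27.6, 17.3 and 17.8 CPM without a call. Tgfbi, a secreted target, fell from 17.1 to 2.84 and 6.48 CPM. Of the 14 tested genes 4 rose and 2 fell, against 8.87% called higher and 5.01% called lower among all tested genes. The median log2 ratio of the 14 was 0.06 and 0.12, close to that of all tested genes. None of the 8 tested BMP genes was called by edgeR (5 had an unadjusted p under 0.05) or DESeq2. Among them were the targets Id1 (187, 150 and 119 CPM) and Id3 (203, 124 and 105 CPM). Without the fold limit, 3 of the 8 were lower and 1 higher by edgeR adjusted p under 0.05.

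p53 targets rose in number. All 27 genes of that list were tested, 16 rose and 1 fell, against 8.87% and 5.01% of all tested genes, and the median log2 ratio was 1.36 in replicate 1 and 1.69 in replicate 2. Phlda3, an inhibitor of Akt, was at 1.98, 78.4 and 115 CPM, 39.6-fold and 58.1-fold higher. The receptor Eda2r went from 0.893 to 14.6 and 26.2 CPM, Trp53inp1 from 2.21 to 24.5 and 44.0 CPM, and the RNA-binding protein Zmat3 from 7.38 to 59.4 and 83.1 CPM. These genes separated the irradiated libraries from the control by 8-fold or more. The polo-like kinase Plk2 rose from 6.09 to 32.7 and 60.0 CPM and the stress cytokine Gdf15 from 7.30 to 39.0 and 64.8 CPM. Cdkn1a, the p21 inhibitor of cyclin-dependent kinases, was at 64.7, 199 and 308 CPM, 3.08-fold and 4.77-fold higher (adjusted p = 0.00597). Cyclin G1 (Ccng1) was at 62.3, 263 and 365 CPM. Mdm2, the ubiquitin ligase that degrades p53, was at 21.6, 70.3 and 113 CPM, with 70.1% of its UMIs fractional and the call lost when only whole-number entries were counted. Bax (61.7, 186 and 241 CPM) and Bbc3, which encodes PUMA (13.4, 32.5 and 34.8 CPM), promote cell death and rose. In all 16, replicate 2 lay above replicate 1.

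Other p53 targets did not move with them. Sesn1, which restrains mTOR signalling, fell from 31.9 to 6.84 and 8.42 CPM, while its relative Sesn2 rose from 6.75 to 23.4 and 37.6 CPM. Pmaip1, which encodes NOXA, was at 32.6, 32.3 and 49.3 CPM, and Btg2 at 69.6, 56.0 and 79.2 CPM. The repair genes Ddb2 (10.4, 5.97 and 6.40 CPM) and Xpc (9.35, 6.99 and 8.99 CPM) were not called. Neither was the death receptor Fas (4.27, 7.35 and 10.3 CPM). Of 24 DNA repair genes, all tested, none was called by edgeR or DESeq2, and 8 had an unadjusted edgeR p under 0.05. Without the fold limit, 4 were higher and 2 lower by edgeR adjusted p under 0.05. The median log2 ratio of the 24 was 0.35 and 0.25. Among 19 tested apoptosis regulators the executioner caspase Casp6 fell from 194 to 31.1 and 39.7 CPM. Cflar, an inhibitor of caspase-8, was the only one called higher, with 99.9% of its UMIs fractional and no call from whole-number entries.

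Mitosis genes differed little between these libraries, all of which were sorted for Ki67-RFP. By edgeR and by DESeq2 none of 32 was called in either direction, and 7 had an unadjusted edgeR p under 0.05. Without the fold limit, 4 were lower and none higher by edgeR adjusted p under 0.05. The median log2 ratio of the 32 was 0.09 and −0.07, and Top2a, which untangles DNA, was at 244, 273 and 253 CPM. Of 28 S phase genes Rrm2 (62.1, 178 and 159 CPM) and Chaf1b (24.0, 55.2 and 51.3 CPM) rose and Tk1 (103, 47.8 and 42.7 CPM) fell, against 8.87% called higher and 5.01% called lower among all genes. The call of Chaf1b was lost with TMM-scaled folds, with whole-number entries and without cluster 5. By fold alone, 5 S phase genes were higher without irradiated replicate 2, and the list's median log2 ratio was 0.64 and 0.37. Regulators of G1 changed more. Ccnd1 was at 119, 390 and 475 CPM and Ccnd2 at 477, 1192 and 1418 CPM, while the INK4 inhibitors Cdkn2b (41.4, 8.23 and 11.2 CPM), Cdkn2c (18.7, 6.99 and 7.29 CPM) and Cdkn2d (16.1, 4.15 and 3.40 CPM) fell. So p21 and the D cyclins were higher in the same libraries, and the INK4 genes lower. Ccnd3 was called higher too, with 99.7% of its UMIs fractional and no call from whole-number entries.

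Stem cell genes split into those lowered and those raised. Of 24 tested, 6 rose and 3 fell, against 8.87% and 5.01% of all tested genes. Olfm4, an abundant product of stem cells and progenitors, fell from 1641 to 740 and 329 CPM, a call that DESeq2 did not make. Gkn3 fell from 69.0 to 19.1 and 11.0 CPM and Slc14a1 from 18.3 to 4.44 and 2.19 CPM. In these 3 genes replicate 2 lay below replicate 1, and by fold alone 5 genes of the list were lower without replicate 1. Lgr5, the R-spondin receptor of the crypt base, was at 14.6, 10.9 and 8.08 CPM, and the Wnt-driven genes Axin2 (65.3, 72.7 and 61.3 CPM) and Ascl2 (19.6, 39.0 and 26.4 CPM) were not called either. Among those that rose, Cd44, a hyaluronan receptor, was at 34.2, 302 and 317 CPM, Igfbp4 at 22.8, 110 and 94.2 CPM and Sp5 at 6.36, 23.8 and 24.1 CPM. Myc was at 36.9, 88.8 and 94.5 CPM, Ephb3 at 9.19, 21.9 and 23.7 CPM and Msi1 at 8.85, 29.9 and 19.9 CPM. Of 9 tested Notch genes only the ligand Jag2 was called, from 1.13 to 9.98 and 13.3 CPM, against 8.87% of all tested genes called higher. Hes1, the Notch effector, was at 324, 291 and 347 CPM.

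Genes of the EGF family list were called in both directions. For this and the next lists, 8.87% of all tested genes were called higher and 5.01% lower. Of 12 tested genes 6 rose and 1 fell: the ligands Ereg (0.272, 9.83 and 18.7 CPM), Btc (4.66, 29.8 and 45.9 CPM) and Areg (22.2, 140 and 258 CPM), and the feedback inhibitors Dusp6 (3.73, 36.8 and 40.2 CPM), Spry1 (6.68, 17.5 and 16.9 CPM) and Errfi1 (19.1, 39.2 and 40.7 CPM), the last not called under TMM scaling. The receptor Erbb3 fell from 98.3 to 45.4 and 45.8 CPM, a call lost when only whole-number entries were counted. Among matrix and cell-shape genes, 3 of 9 tested integrin and laminin genes rose, Itgb4 from 25.0 to 84.2 and 110 CPM, Lamc1 from 3.76 to 8.88 and 12.2 CPM, and the linker Plec from 26.3 to 58.4 and 82.9 CPM. Of 17 tested cytoskeleton and keratin genes 6 rose (4 under TMM scaling) and none fell. Krt18 was at 243, 1253 and 1335 CPM, while its partner Krt8 was at 2164, 2339 and 2740 CPM without a call. Krt23 went from 5.55 to 63.5 and 107 CPM, Flna from 2.87 to 13.98 and 21.5 CPM and Tmsb10, which binds actin monomers, from 413 to 1270 and 1289 CPM.

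Inflammatory genes moved both ways. Of 16 tested NF-kB and cytokine genes 9 rose and 3 fell (14 and 3 with no level filter). Besides Il1rn, Cxcl16 went from 1.44 to 36.7 and 56.1 CPM, Tnf from 0.194 to 15.8 and 9.56 CPM, Icam1 from 2.49 to 19.3 and 20.2 CPM, and the peroxide-making pair Duox2 (2.72, 29.6 and 22.9 CPM) and Duoxa2 (3.92, 31.2 and 23.3 CPM) rose together. The genes that fell serve homeostatic mucosal immunity: Pigr, the carrier of secretory IgA, from 1528 to 398 and 366 CPM, and the chemokines Ccl25 (712, 170 and 218 CPM) and Ccl28 (37.2, 9.36 and 7.01 CPM). Among 20 tested of 38 interferon response genes 5 rose and 1 fell, and with no level filter 19 rose and 1 fell. Isg15 was at 2.59, 10.9 and 40.7 CPM and Ifit1 at 0.382, 8.75 and 20.8 CPM, the motif-bearing genes printed above, and in both replicate 2 lay above replicate 1 by over 2-fold. Cxcl10 (0.543, 13.6 and 6.56 CPM) was not called without cluster 5 and Isg15 was not called by DESeq2. Oasl2 (3.03, 9.71 and 17.2 CPM) and Bst2 (13.8, 31.9 and 30.8 CPM) also rose, and Psmb9, an immunoproteasome subunit, fell from 89.5 to 24.4 and 18.1 CPM. B2m, the light chain of MHC class I, fell from 822 to 367 and 395 CPM, a call lost without cluster 5, and Cd74 rose from 5.86 to 21.4 and 28.2 CPM. T cell and myeloid markers moved with these genes as given above, and their part in the result was not tested.

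**Figure D3:**
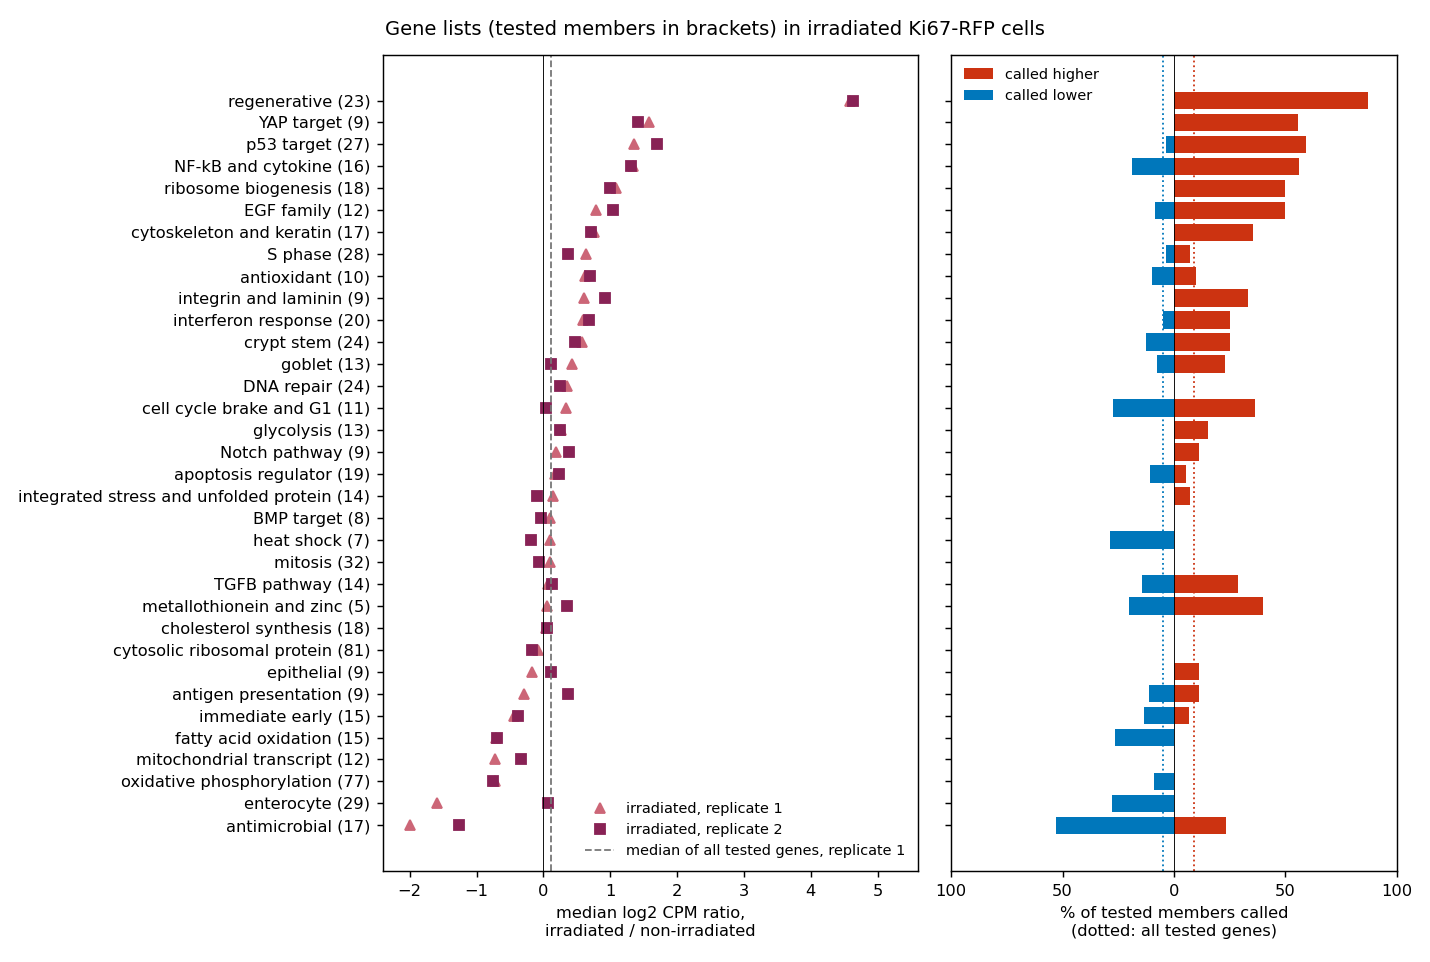
Left, median log2 CPM ratio of the tested members of each gene list in irradiated replicates 1 (triangles) and 2 (squares), with the median of all tested genes dashed. Right, percent of tested members called higher (right of 0) and lower (left of 0), with the 8.87 and 5.01% of all tested genes dotted; the regenerative list lies highest and the antimicrobial list lowest.

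Immediate early and heat shock genes answer handling as well as injury. Of 15 and 7 tested, 4 in all were called lower and 1 higher, against 5.01% and 8.87% of all tested genes. By edgeR adjusted p under 0.05 alone, 8 immediate early genes were lower and 3 higher, and 3 heat shock genes were lower. Fosb went from 42.5 to 15.4 and 14.3 CPM, Dusp1 from 45.5 to 15.6 and 18.4 CPM, Hspa1a from 41.8 to 8.49 and 11.7 CPM and Hspa1b from 76.4 to 29.2 and 31.4 CPM. The AP-1 partner Fosl1 rose from 1.24 to 10.6 and 14.4 CPM, the only one of 15 tested immediate early genes called higher.

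Antimicrobial products divided by kind. Reg3b and Reg3g, lectins that bind bacterial cell walls, rose from 161 to 1165 and 1925 CPM and from 142 to 885 and 1129 CPM, and Pla2g2a from 1.36 to 12.2 and 9.23 CPM. Of the same family, Reg1 fell from 306 to 36.2 and 70.6 CPM and Reg3a from 38.7 to 2.11 and 4.94 CPM, while Reg4 rose from 16.6 to 50.9 and 78.3 CPM. In all, 4 of 17 tested antimicrobial genes rose and 9 fell. The Paneth cell defensins fell, Defa24 from 1464 to 351 and 406 CPM and Defa17 from 706 to 117 and 169 CPM. With cells thinned to 2000 UMIs, as described below, Defa24 was found in 58.4, 8.62 and 13.6% of all cells of the 3 libraries. In their goblet-like cells it was found in 63.1, 29.0 and 29.4%, and free RNA was not told apart from expression. Defensin copies are near identical, 68.9 to 94.6% of the UMIs of the lowered ones were fractional, and single defensin genes are therefore uncertain; from whole-number entries 5 antimicrobial genes fell. Lyz1, the Paneth lysozyme, was at 243, 153 and 197 CPM and was not called. Cells of a Paneth-like cluster made up 3.36% of the non-irradiated library (62 cells) and 0.556 and 0.572% of the irradiated ones (4 cells each).

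The genes that fell most were not all of a single kind of cell. In the clustering used below, Slc6a20a was a leading gene of enterocyte-like cells, and Sfrp5 and Sycn of stem-like cells. Gsdmc2, Gsdmc4, Slco2b1 and Ces1e were leading genes of an unnamed cluster of control cells. Car4, a membrane carbonic anhydrase, was at 106 CPM (2741 UMIs) without irradiation and at 0.146 and 0.486 CPM (2 and 6 UMIs) with it. In the control Car4 stood at 231 CPM in enterocyte-like cells and at 102 CPM in that unnamed cluster. In the small enterocyte-like cluster of replicate 2 it was at 0 CPM. Arg2, the mitochondrial arginase, fell from 352 to 1.89 and 7.05 CPM, and the retinol-handling gene Rdh7 from 62.1 to 1.02 and 2.11 CPM. These genes too were named for the size of their ratio in both libraries, which is no test. The gasdermins Gsdmc4 (55.2, 0.328 and 0.324 CPM) and Gsdmc2 (20.8, 0.0728 and 0.108 CPM, 46.3% fractional) fell, and so did the Wnt antagonist Sfrp5 (25.8, 0.364 and 0.324 CPM). The secretory-granule gene Sycn, at 11.8 CPM without irradiation, had no UMI in replicate 1 (at least 54.0-fold lower) and 0.405 CPM in replicate 2. Further down the 15 most lowered genes stood the carboxylesterases Ces1e (49.2, 0.583 and 2.51 CPM) and Ces1d (24.1, 1.46 and 1.05 CPM), the amine oxidase Maob (35.6, 0.801 and 2.03 CPM), the ketosteroid reductase Akr1c14 (23.7, 0.510 and 1.46 CPM), and the transporters Slco2b1 (44.6, 2.69 and 2.75 CPM) and Slc6a20a (33.4, 1.75 and 2.11 CPM). The defensins Defa20 and Defa2 complete that set, with over 90% of their UMIs fractional.

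The enterocyte list was less even between the irradiated libraries. Of 29 genes, all tested, 8 fell and none rose, with a median log2 ratio of −1.59 in replicate 1 and 0.07 in replicate 2. By fold alone, 6 were higher and 9 lower without irradiated replicate 1, and 1 was higher and 16 lower without irradiated replicate 2. Fabp1, the liver-type fatty acid binder, was at 1327, 75.9 and 363 CPM, Fabp2 at 1100, 170 and 459 CPM, and Alpi, the brush-border phosphatase, at 156, 27.0 and 69.7 CPM. DESeq2 did not call these 3 and kept 5 of the list. Gstm3 fell from 137 to 8.62 and 13.7 CPM and the urea-cycle gene Otc from 250 to 41.0 and 42.9 CPM, alike in both libraries. A small enterocyte-like cluster held 1.25% of the cells of replicate 1 and 4.58% of those of replicate 2, and its part in the gap between them was not tested. Goblet genes were mixed, with Agr2 (212, 667 and 472 CPM), Spdef (2.13, 12.2 and 6.24 CPM) and Fxyd3 (37.9, 183 and 199 CPM) higher and Klk1 (92.6, 29.7 and 21.1 CPM) lower among 13 tested. Among all tested genes 8.87% were called higher and 5.01% lower.

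Nuclear genes of oxidative phosphorylation were lower after irradiation, and part of the ribosome biogenesis genes rose. Of 77 tested nuclear genes of oxidative phosphorylation, 76 lay lower in both irradiated libraries with an adjusted p under 0.05, and 7 passed the 2-fold limit (16 under TMM scaling, 4 from whole-number entries). Their median log2 ratio was −0.73 and −0.75, and the summed level of all 82 members of the list was 67499 CPM without irradiation and 39547 and 39842 CPM with it. The 13 transcripts of the mitochondrial genome were at 22395, 12518 and 17578 CPM in sum. Of the 12 tested, none was called by edgeR (9 had an unadjusted p under 0.05) or DESeq2. Without the fold limit, 6 of them were lower and none higher by edgeR adjusted p under 0.05. Of 15 tested fatty acid oxidation genes 4 fell, among them the regulator Ppara (11.1, 1.60 and 2.03 CPM) and the thiolase Acaa2 (209, 84.2 and 89.7 CPM). Hk2, which starts glycolysis, rose from 39.6 to 159 and 147 CPM and the glucose transporter Slc2a1 from 15.7 to 34.1 and 38.7 CPM, the latter not under TMM scaling. Of 18 ribosome biogenesis genes 9 rose (5 under TMM scaling), with a median log2 ratio of 1.08 and 0.99; Nop56 was at 176, 497 and 451 CPM and nucleolin (Ncl) at 498, 1216 and 1105 CPM. None of 81 tested cytosolic ribosomal protein genes was called by edgeR (40 had an unadjusted p under 0.05) or DESeq2. Without the fold limit, 25 of them were lower and 2 higher by edgeR adjusted p under 0.05. When whole-number entries alone were counted, 1 was called higher and 5 lower.

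Redox and metal genes moved singly. The glutathione peroxidase Gpx2 was at 640, 2721 and 2614 CPM and the microsomal transferase Mgst1 at 623, 262 and 275 CPM. The metallothioneins Mt2 (104, 484 and 532 CPM) and Mt1 (519, 1176 and 1363 CPM) rose, and the zinc importer Slc39a5 fell from 108 to 13.9 and 18.5 CPM. None of 18 cholesterol synthesis genes was called by edgeR (8 had an unadjusted p under 0.05) or DESeq2. Without the fold limit, 5 of them were lower and 2 higher by edgeR adjusted p under 0.05. Of 14 tested stress genes of the integrated stress and unfolded protein responses only Asns (32.1, 81.0 and 77.4 CPM) was called. It was higher, as were 8.87% of all tested genes.

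The same genes were counted per cell. Cells were thinned to 2000 UMIs each, which left out none, and shares are percentages of cells with a UMI, with 95% exact (Clopper-Pearson) intervals that cover counting error only. S100a6 was found in 2.00% of non-irradiated cells (1.42 to 2.75) and in 67.3% (63.8 to 70.7) and 76.97% (73.7 to 80.0) of irradiated cells, and without thinning in 11.2, 95.1 and 97.0%. Ly6a was found in 0.108% (0.0131 to 0.391), 33.5% (30.1 to 37.1) and 34.8% (31.2 to 38.4), and without thinning in 0.867, 67.9 and 66.0%. A UMI of Ly6a was thus found in 1 of about 3 irradiated cells at this thinning. Clu was in 0.108, 8.48 and 10.9% (0.379, 26.1 and 30.6% unthinned), a smaller fraction. Phlda3 was in 0.108, 15.9 and 20.03% (2.55, 55.9 and 62.7% unthinned), and Cdkn1a in 13.6, 31.0 and 37.3% (44.4, 76.2 and 83.5% unthinned). A UMI of either p53 target was found in a larger share of irradiated than of control cells. Mki67 was in 26.9, 27.1 and 21.7% (63.2, 74.8 and 65.4% unthinned). Olfm4 was in 54.7, 38.8 and 24.3% (84.9, 75.2 and 54.6% unthinned), Fabp1 in 52.0, 6.68 and 14.4% (83.7, 25.7 and 43.3% unthinned), and Car4 in 17.1, 0 and 0% (50.9, 0.278 and 0.429% unthinned), where 0 of 719 and 0 of 699 cells have exact upper bounds of 0.512 and 0.526%, and 3 cells, the limit used for counts of 0, would be 0.417 and 0.429%. Epcam was in 93.4, 82.8 and 82.1% (99.5, 99.2 and 99.0% unthinned).

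Free RNA in droplets can give a UMI to a cell that does not express a gene. Goblet-like cells, in which the genes read here are not defining, served as a comparison at the same thinning, with 65, 31 and 17 cells in the 3 libraries at median depths of 9804, 17658 and 15339 UMIs. Clu was found there in none (upper bounds of 5.52, 11.2 and 19.5%) and Ly6a in 0, 6.45 and 0%. S100a6 was found in 13.8, 45.2 and 70.6% (27.3 to 64.0% and 44.0 to 89.7% in the irradiated libraries), and Fabp1 in 24.6, 0 and 5.88% (0.149 to 28.7% in the last). Phlda3 was found in 0, 9.68 and 5.88% (2.04 to 25.8% and 0.149 to 28.7% in the irradiated libraries), and Cdkn1a in 10.8, 12.9 and 11.8% (3.63 to 29.8% and 1.46 to 36.4%). The irradiated shares of Ly6a and Cdkn1a lay above the goblet-like intervals of the same library, those of Cdkn1a by little. For Clu the difference was not detectable at this number of goblet-like cells. The irradiated shares of Fabp1 and Phlda3 in both libraries, and of S100a6 in replicate 2, lay within the goblet-like intervals. The S100a6 share of replicate 1 lay above its interval. The intervals are wide, as they rest on 31 and 17 irradiated cells. Whether goblet-like cells express these genes themselves was not tested. A share within its interval therefore does not tell free RNA from expression.

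**Figure D4:**
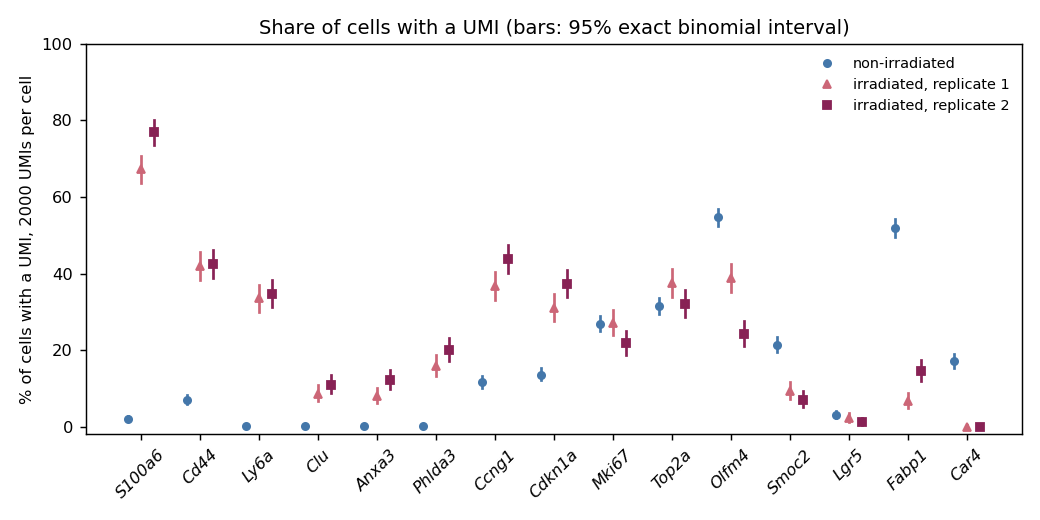
Percent of cells with a UMI after thinning to 2000 UMIs per cell, for named genes in the non-irradiated and both irradiated libraries, with 95% exact binomial intervals. S100a6 and Ly6a lie near 2.00 and 0.108% in the control and above 60 and 30% after irradiation, while Mki67 stays between 21.7 and 27.1%.

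Cells with Ly6a carried cycle genes too. Among irradiated cells with a Ly6a UMI, Mki67 was found in 24.5 and 20.2%, and among those without one in 28.5 and 22.6%. Olfm4 was found in 24.5 and 16.0% of the former and in 46.0 and 28.7% of the latter, Clu in 13.7 and 16.9% against 5.86 and 7.68%, and Cdkn1a in 39.4 and 44.0% against 26.8 and 33.8%. These shares describe thinned cells of each library and carry no test.

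Clustering of all cells placed nearly all progenitors of the control and of the irradiated libraries in separate clusters. Condition and library cannot be told apart there, and the sizes of those separate clusters are not compared between conditions. Within the irradiated libraries 3 clusters held most cells. The genes of a cluster are described without a test, since the same values made it. Cluster 2, named regenerative-like from its markers, held 33.7% of replicate 1 and 48.5% of replicate 2, with 14098 and 15535 UMIs per cell at the median. Clu stood there at 116 and 118 CPM, Ly6a at 550 and 447 CPM, S100a6 at 2808 and 2956 CPM, and Sprr2a1, a barrier protein, at 1662 and 1628 CPM. Clu and S100a6 lay closer between the replicates inside the cluster than in the whole libraries, and Ly6a did not. Its p53 targets were high as well, with Phlda3 at 164 and 163 CPM, Cdkn1a at 399 and 425 CPM and a list sum of 4606 and 5167 CPM. Olfm4 was at 129 and 85.7 CPM, yet Mki67 was at 141 and 128 CPM and Top2a at 224 and 233 CPM, so these cells still carried cycle genes.

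Cluster 4 took no name under the marker rule and held 33.0 and 19.2% of the cells, with deeper cells (24290 and 21482 UMIs at the median) and less mitochondrial RNA (0.863 and 1.01%). Its leading genes were Rgcc (92.6 and 111 CPM), Igfbp4 (159 and 162 CPM) and Mt2 (664 and 794 CPM). Olfm4 was at 1241 and 890 CPM, Axin2 at 103 and 97.1 CPM, Npm1, a nucleolar chaperone, at 2639 and 2629 CPM, and Rrm2 at 228 and 241 CPM. Here Olfm4, Axin2 and replication and nucleolar genes stood high. Ly6a was at 110 and 86.7 CPM, Clu at 12.1 and 10.6 CPM, Phlda3 at 27.3 and 34.7 CPM and Cdkn1a at 77.4 and 108 CPM. Summed over lists, clusters 2 and 4 held 4606 and 2497 CPM of p53 targets in replicate 1 and 5167 and 2602 CPM in replicate 2, but 1605 and 3276 CPM of S phase genes in replicate 1 and 1745 and 3287 CPM in replicate 2. Ribosome biogenesis genes summed to 5309 and 8060 CPM in replicate 1. Regenerative and p53 genes thus stood higher in cluster 2, and replication and nucleolar genes in cluster 4. Stem genes were divided. Olfm4, Axin2, Igfbp4, Smoc2, Ascl2 and Gkn3 stood higher in cluster 4 in both replicates. Cd44 (407 and 383 CPM in cluster 2, 269 and 264 CPM in cluster 4) and Myc (95.1 and 101 against 88.5 and 90.7 CPM) stood higher in cluster 2. Lgr5 stood higher in cluster 4 in replicate 1 and in cluster 2 in replicate 2.

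Cluster 5 (25.5 and 23.6% of the cells) was shallow, with 9394 and 8310 UMIs per cell at the median and 3.72 and 5.23% mitochondrial UMIs. It was led by the nuclear RNA 7SK at 5224 and 7530 CPM, and it held no non-irradiated cell. Across whole libraries 7SK was at 122, 1240 and 1678 CPM, with 71.8% of its UMIs fractional. Its levels of Ly6a (237 and 329 CPM), Phlda3 (69.8 and 116 CPM) and Olfm4 (735 and 346 CPM) lay between those of clusters 2 and 4 in both replicates. Without it 808 genes were called higher and 460 lower, and 763 and 448 of these were the same as with it.

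**Figure D5:**
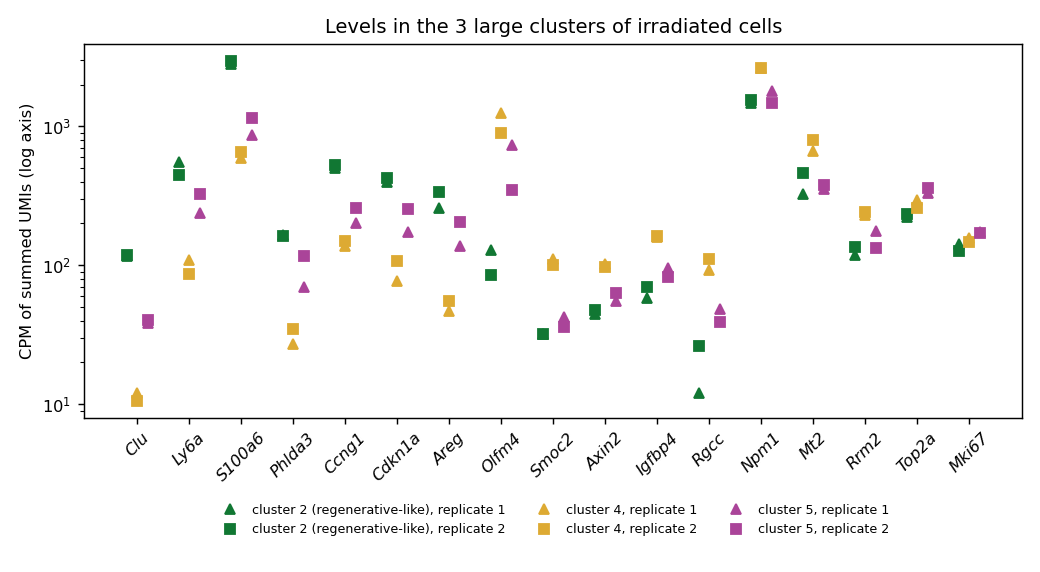
Level in CPM (log y axis) of 17 genes in clusters 2, 4 and 5 of the irradiated libraries, replicates 1 and 2 shown separately. Clu, Ly6a, Phlda3 and Cdkn1a are highest in cluster 2 and Olfm4, Igfbp4 and Rrm2 in cluster 4, alike in both replicates.

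Goblet-like cells held cells of all 3 libraries (65, 31 and 17) and allowed a look at 1 class, without a test because the control has 1 library. Reg4 was at 43.8 CPM in non-irradiated goblet-like cells and at 1053 and 2520 CPM in irradiated ones, and Agr2, a mucin-folding isomerase, at 6124, 11888 and 12972 CPM. Tff3, the trefoil peptide of mucus, was at 16570 CPM without irradiation and 8807 and 9694 CPM with it. Reg4 stood higher and Tff3 lower in both irradiated libraries within the class. S100a6 was at 34.5, 620 and 891 CPM there and Ly6a at 1.33, 47.6 and 43.0 CPM, where free RNA and expression cannot be told apart.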

How the data were processed

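Per the labels' protocols, cells were sorted and captured with PIPseq T2 chemistry. The submitters' processing notes name FastQC 0.11.3, STARsolo and STAR 2.7.10a; neither their role for these files nor the build is given there. The authors deposited expected counts of UMIs over 54307 gene rows, estimated where a UMI is shared between genes; these rows give 53424 symbols.

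Members and lists were chosen with earlier results of these data known. UMIs of kept cells (at least 500 UMIs, at most 20% mitochondrial) were summed per symbol, rounded and tested with edgeR 4.0.16 (R 4.3.3; quasi-likelihood, TMM, Benjamini-Hochberg adjusted, two-sided) on symbols with a mean of group means of at least 5 CPM. The level of 3 UMIs is 0.116, 0.218 and 0.243 CPM. Intervals are exact 95% Poisson or binomial and cover counting error only. Clusters used scanpy 1.11.5 (2000 variable genes, 30 components, 15 neighbours) and leidenalg 0.10.2 at resolution 0.6; a class needed a 2-fold median over 3 detected markers. Scrublet called 8, 3 and 2 doublets, which were kept. Named genes are the 15 most raised and 15 most lowered calls, up to 6 calls per list and direction, and a fixed panel; other genes named were chosen after their values were seen. Promoter windows come from RefSeq GRCm38.p6. 0 columns were left unmapped. The fits were checked on simulated data. DESeq2 1.42.0 was an alternative. Some results are not reported here.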

Additional observations from a re-analysis of the deposited data

How the results depend on the processing

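No paired analysis was possible because the non-irradiated group has a single library. The counts of genes called higher and lower moved with the rule of the call and the level filter, most of it by construction: 1751 and 1800 by adjusted p alone, 1610 and 1041 with a fold limit of 1.5, 429 and 210 with a limit of 3, 1638 and 782 with no level filter beyond 10 UMIs in all, and 465 and 302 with a filter of 20 CPM. They stayed within 1.5 times of 870 and 491 with DESeq2 (815 and 462), TMM-scaled folds (719 and 622), whole-number entries (831 and 547, of which 625 and 406 were the same genes), Gm and -ps symbols kept (1003 and 516), doublets left out (868 and 491) and cluster 5 left out (808 and 460), the last chosen after seeing the data. Leaving out 1 irradiated library leaves no residual degrees of freedom, and by fold alone 991 to 1064 genes were then higher and 554 to 697 lower. Leaving out the control leaves no comparison. For the fixed panel, an alternative with a test was the same when the call was unchanged. Averages over cells and leaving out 1 irradiated library give no call. They were the same within 1 standard deviation of the 2 log2 ratios, which leaving out 1 library meets by construction. Of 157 alternative values for the 15 genes of the panel, 151 were the same and 0 reversed the direction of a called gene. Another 2 moved, as averages over cells of the CPM per cell (Tgfb1 2.32 and Smad7 −0.60, against 1.58 and −0.66). The other 4 lost the call, Olfm4 and Fabp1 with DESeq2, Mdm2 with whole-number entries and Tgfb1 without cluster 5. The cause was not tested. At resolution 1.0 regenerative-like cells were 30.0 and 43.8% of the irradiated libraries. A gene without a UMI in the control may still lie below 0.116 CPM, the level of 3 UMIs, at this depth.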
